A study of Mus musculus with 4 samples.

Results

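Epiblast cells are the pluripotent cells of the embryo around implantation, and ES cells are derived from them at an earlier, naive stage. As pluripotent cells move on towards the primed state they turn on a set of transcription factors, led by Otx2 and Pou3f1, with Fgf5 as the classical marker, and several of these genes stay on in the early neural plate. The genes described here are 10 such markers: the transcription factor genes Otx2, Foxd3, Sox3, Pou3f1, Sox4 and Lef1, and the genes of a tight junction protein (Cldn6), a secreted Wnt antagonist (Sfrp2), a serine/threonine kinase (Pim2) and a growth factor (Fgf5). They were chosen by the platform's gene symbol, which gave 21 of the 45101 probe sets of the array and 10 of 18193 genes. Single probe sets stood for 5 of the genes, and the other 5 had several.

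The study measured RNA of mouse ES cells that differ in their copies of BAF250, an ARID subunit of the SWI/SNF (BAF) chromatin remodelling complex, on 4 Affymetrix arrays, 1 per culture. The homozygous knock-out group held 2 samples, called ko1 and ko2, the heterozygous knock-out group 1 and the wild type group 1. Each sample is called a line here, though its source label names only ES cells of that genotype. All were grown on gelatin without feeder cells, in serum with leukaemia inhibitory factor. The labels do not state the strain, the targeted part of the gene, the letter of BAF250 (a or b) or whether a line is a single clone. No label names separate cultures behind the arrays of a group, so every p-value covers only the spread between these samples.

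Values are signals as the authors deposited them, on a linear scale without unit. The wild type array was brighter as a whole, with a median signal between 2.61 and 2.74 on the other 3 arrays, against 4.01 in wild type. Differences are therefore given as log2(signal + 0.675) after each array was centred on the median probe set, as homozygous minus wild type or minus heterozygous. The brightest control probe set of an unspiked bacterial transcript served as the background of each array: 5.55 and 3.82 in the homozygous lines, then 6.92 for heterozygous cells and 7.57 for wild type cells. Both BAF250 genes were read as a check of the labels. The brighter Arid1a (BAF250a) probe set, 1448709_at, read 7.03 and 3.57 in the homozygous lines, 50.4 in heterozygous and 109 in wild type (homozygous minus wild type -3.59, limma adjusted p = 0.00891; 0.0633 without the filter on dim probe sets and 0.300 with its probe sets averaged). The weaker Arid1a probe set, 1417440_at, read 17.3 and 1.06 in the homozygous lines, 24.1 in heterozygous and 42.9 in wild type. The Arid1b (BAF250b) probe set, 1455979_at, was at background on all 4 arrays, with 0.774 and 0.233 in the homozygous lines, 3.03 in heterozygous and 6.14 in wild type, and was not tested. ES cell identity was checked with 8 markers, of which 8 lay above background in ko1 and 7 on each other array. Fut4 made that difference, with 7.51 in ko1 and 7.54 in wild type, where the background was higher. All 8 had a homozygous minus wild type difference below 0, with a median of -1.92. The actin control ratio of 3' to 5' signal, a sign of RNA quality, was 5.01 and 2.61 in the homozygous lines, 2.86 in heterozygous cells and 1.3 in wild type cells.

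The comparison of homozygous with wild type and heterozygous cells asks which markers differ once both copies are disrupted. Otx2, Foxd3, Pou3f1, Sfrp2 and Pim2 read lower in both homozygous lines than in the other arrays on their brightest or only probe set, while Cldn6 read higher. Over the 10 genes, each by its brightest probe set, the median log2 difference from wild type was -1.47, with 9 genes below 0 (Fgf5, at background throughout, among them) and 1 above, against a median of 0.05 over all 18193 genes, of which 47.9% lay below 0. The size of that median rests on the processing: it was -2.14 with signals as deposited, where the median of all tested probe sets was -0.74. It was -0.51 over the 9 genes that had a value when the probe sets of a gene were averaged, with 6 below 0 and 3 above. Against heterozygous the median was -1.44, again with 9 genes below 0 and 1 above, beside 0.00295 over all genes. None of the 17 probe sets bright enough to be tested passed limma's test in either comparison. That test called 0.37% of all 27022 tested probe sets against wild type (0.337% as higher and 0.0333% as lower) and 0.259% against heterozygous (0.241% as higher and 0.0185% as lower), shares too small for the 0 of 17 to set these probe sets apart. With signals as deposited, without centring, the calls against wild type split into 57 higher and 54 lower, in place of 91 and 9. At an unadjusted p under 0.05, 6 of the 17 passed against wild type, 3 lower (Otx2, Foxd3, Pim2) and 3 higher (Cldn6, 1 Sox3 and 1 Sox4 probe set), beside 6.76% of all tested probe sets. Against heterozygous 2 passed, those of Pou3f1 and Pim2, beside 5.76%. These are measurements of bulk RNA, in which fewer cells of a type and less RNA per cell cannot be told apart.

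**Figure D1:**
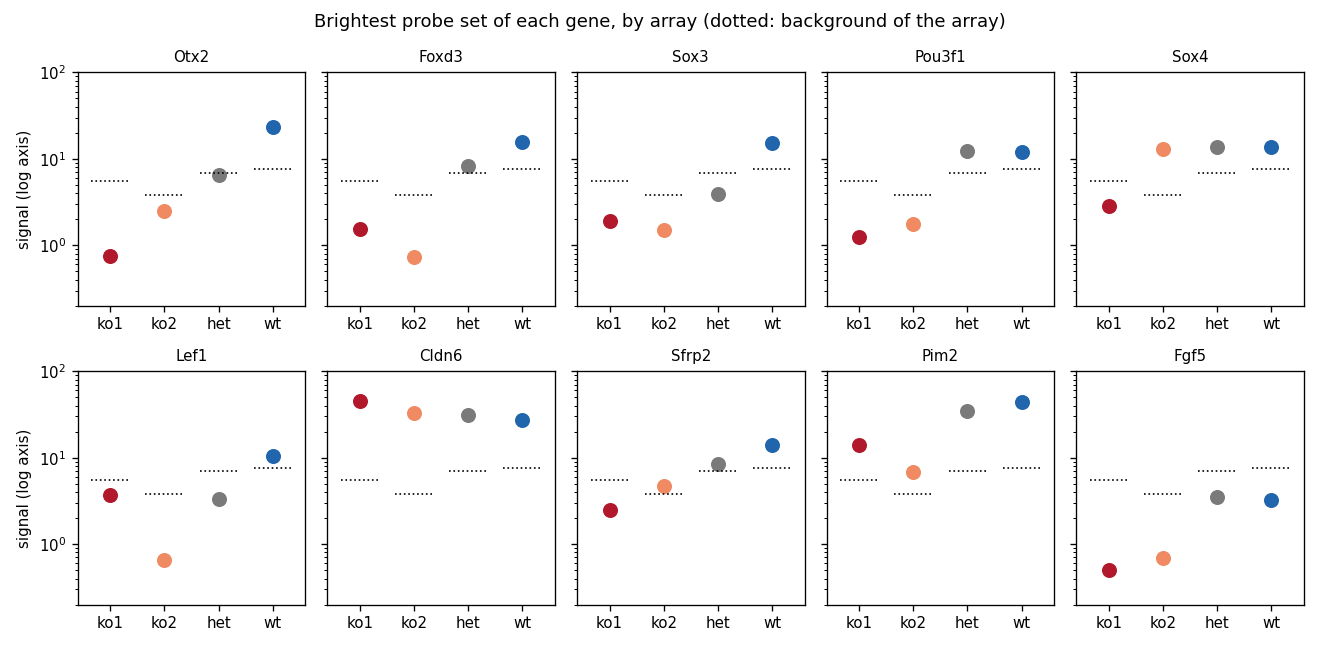
Signal of the brightest probe set of each of the 10 genes on each array (log axis), ko1 and ko2 being the homozygous lines, het heterozygous and wt wild type, with the background of the array as a dotted line. Pim2 and Cldn6 lie above background on all arrays, and once the arrays are centred both homozygous lines are below the other 2 arrays for Otx2, Foxd3, Sox3, Pou3f1, Sfrp2 and Pim2.

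Otx2 encodes a bicoid-class homeodomain factor that the epiblast and the anterior neural plate need. Its only probe set, 1425926_a_at, read 0.756 in ko1 and 2.49 in ko2, against 6.47 in heterozygous and 23.3 in wild type. Wild type was the only array above background, the heterozygous value lay just below it, and both homozygous lines lay under both other arrays. The log2 difference from wild type was -2.83 ± 1.06 (SE, n = 2 and 1, limma adjusted p = 0.625). With both homozygous lines set at their background the signal was at least 2.85-fold lower than in wild type. The heterozygous line stood at -1.07 ± 1.22 from wild type.

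Foxd3, a forkhead factor of the epiblast and later of the neural crest, has 1 probe set, 1422210_at. It read 1.54 in ko1 and 0.730 in ko2, against 8.35 in heterozygous and 15.6 in wild type. Both homozygous lines were at background, and both other arrays were above theirs. The difference was -2.53 ± 1.11 from wild type (limma adjusted p = 0.725; at least 1.93-fold lower) and -2.37 ± 1.11 from heterozygous (limma adjusted p = 0.852; at least 1.72-fold lower). Heterozygous minus wild type was -0.17 ± 1.28.

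Pou3f1 encodes OCT6, a POU factor of the primed epiblast and the nervous system. Its brighter probe set, 1422068_at, read 1.25 in ko1 and 1.79 in ko2, against 12.3 in heterozygous and 12.2 in wild type. Here the heterozygous signal was at the wild type level as deposited, and 0.70 ± 1.18 above it once centred. Both homozygous lines were at background. The difference was -2.59 ± 1.02 from heterozygous (limma adjusted p = 0.759; at least 2.48-fold lower) and -1.89 ± 1.02 from wild type (limma adjusted p = 0.781; at least 1.52-fold lower). The other probe set, 1460038_at, read 0.312 in ko1 and 5.55 in ko2, against 4.24 in heterozygous and 1.23 in wild type. The homozygous lines were furthest apart of all 21 probe sets there, and only ko2 was above background, so this probe set carries no common direction for the homozygous lines (1.05 ± 1.5 from wild type, limma adjusted p = 0.936).

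Sox3, an HMG-box factor of the SOXB1 group that marks epiblast and neural plate, gave opposite readings on its pair of probe sets. On 1435192_at it read 1.91 in ko1 and 1.52 in ko2, against 3.97 in heterozygous and 15.3 in wild type, with wild type alone above background (-2.08 ± 1.12 from wild type, limma adjusted p = 0.778; at least 1.90-fold lower). On 1450485_at it read 7.24 in ko1 and 7.90 in ko2, against 1.83 in heterozygous and 0.452 in wild type, with the homozygous lines alone above background (3.54 ± 1.23, limma adjusted p = 0.566; at least 1.59-fold higher). The last bound rests on the centring, since 7.24 and 7.90 lie around the wild type background of 7.57 as deposited. The homozygous lines did not overlap the other arrays on either probe set, below them on the first and above them on the second. The probe sets lay 5.62 apart on the log2 scale in homozygous minus wild type, with one side at background in each, against a median range of 1.29 over the 5359 genes with several tested probe sets. Averaged over both probe sets, Sox3 stood at 0.64 from wild type, on the other side of 0 from its brighter one.

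Sox4, a SOXC factor expressed in many progenitor cells, has 8 probe sets, of which 6 were tested; 4 of the 8 share the same design sequence. The brightest, 1419155_a_at, read 2.81 in ko1 and 13.2 in ko2, against 13.6 in heterozygous and 13.8 in wild type: ko2 sat with the other arrays, and ko1 alone was at background (-0.38 ± 0.86 from wild type, limma adjusted p = 0.964). The probe set 1419156_at read 13.0 in ko1 and 12 in ko2, against 9.85 in heterozygous and 2.41 in wild type. In that case wild type was the array that stood apart, since homozygous minus wild type was 2.76 ± 0.76 (limma adjusted p = 0.269; at least 2.53-fold higher) and homozygous minus heterozygous only 0.31 ± 0.76 (limma adjusted p = 0.943). Its adjusted p against wild type was the smallest of the 17.

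Other Sox4 probe sets went the opposite way or not at all. On 1419157_at the signal was 1.03 in ko1 and 1.85 in ko2, against 3.30 in heterozygous and 13.2 in wild type (-2.07 ± 1.21 from wild type, limma adjusted p = 0.808). On 1449370_at it was 0.557 in ko1 and 6.83 in ko2, against 6.27 in heterozygous and 11.6 in wild type, with ko1 again the low array (-1.34 ± 1.20, limma adjusted p = 0.888). The probe set 1433575_at read 1.58 in ko1 and 3.22 in ko2, against 1.18 in heterozygous, its lowest array, and 8.72 in wild type. The flattest was 1455867_at, above background on all 4 arrays, with 9.34 and 8.01 in the homozygous lines, 8.17 in heterozygous and 7.69 in wild type, where ko2 lay below heterozygous as deposited and above it once centred (0.83 ± 0.74 from wild type, limma adjusted p = 0.888). The remaining pair, 1443778_at and 1458332_x_at, stayed under 1 on every array and were not tested. Of the 8 probe sets, 4 lay below wild type and 4 above it, over a range of 4.83 on the log2 scale that includes background values, so the array gives Sox4 no single direction.

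**Figure D2:**
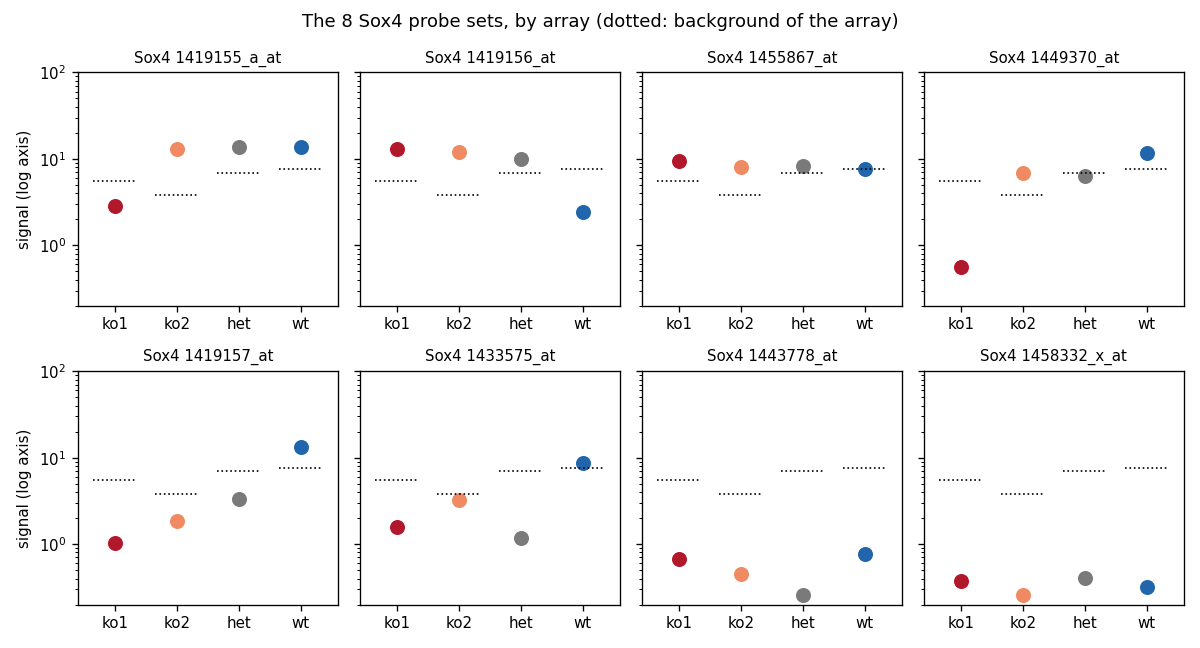
Signal of each of the 8 Sox4 probe sets on each array (log axis), with the background of the array as a dotted line. The set 1419156_at is high in both homozygous lines (13.0 and 12) and low in wild type (2.41), whereas 1419157_at is low in both homozygous lines (1.03 and 1.85) and high in wild type (13.2).

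Lef1 and Sfrp2 belong to Wnt signalling: LEF1 is an HMG-box factor that carries the transcriptional response with beta-catenin, and SFRP2 is a secreted frizzled-related protein that binds Wnt ligands. The brighter Lef1 probe set, 1454734_at, read 3.73 in ko1 and 0.659 in ko2, against 3.37 in heterozygous and 10.4 in wild type. Only wild type was above background, and ko1 read close to heterozygous (-1.52 ± 1.24 from wild type, limma adjusted p = 0.878). The other Lef1 probe set, 1421299_a_at, was at background on all 4 arrays, with 2.74 and 3.59 in the homozygous lines, 4.64 in heterozygous and 0.332 in wild type, and its difference of 2.59 ± 1.33 (limma adjusted p = 0.768) is one between background values. Averaged, Lef1 stood at 0.45 from wild type.

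Sfrp2 has 1 probe set, 1448201_at, which read 2.50 in ko1 and 4.71 in ko2, against 8.45 in heterozygous and 14.1 in wild type. Both homozygous lines lay under both other arrays, and ko1 was at background. The difference was -1.17 ± 0.88 from wild type (limma adjusted p = 0.866) and -1.15 ± 0.88 from heterozygous (limma adjusted p = 0.876), while heterozygous minus wild type was -0.01 ± 1.02.

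Pim2, which encodes a serine/threonine kinase that promotes survival and growth, was the one gene of lower signal in homozygous cells that lay above background everywhere. Its probe set, 1417216_at, read 13.9 in ko1 and 6.78 in ko2, against 34.5 in heterozygous and 43.9 in wild type. Both homozygous lines were under the other 2 arrays, although they differed between themselves (log2 values with an SD of 0.586). The signal was 3.40-fold lower than in heterozygous (-1.77 ± 0.56, limma adjusted p = 0.522) and 2.69-fold lower than in wild type (-1.43 ± 0.56, limma adjusted p = 0.677). The first is the smallest adjusted p of the 17 probe sets against heterozygous. When heterozygous and wild type were pooled, Pim2 had an adjusted p of 0.0963 in limma, still short of the threshold of 0.05.

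Cldn6, a claudin of tight junctions in embryonic epithelia, was the exception among the 10. Its probe set, 1417845_at, read 45.6 in ko1 and 33.1 in ko2, against 31.1 in heterozygous and 26.9 in wild type, all above background. Both homozygous lines were the highest arrays, by 2.28-fold over wild type after centring (1.19 ± 0.47, limma adjusted p = 0.677) but only 1.23-fold over heterozygous (0.30 ± 0.47, limma adjusted p = 0.913). Heterozygous minus wild type was 0.89 ± 0.54. With signals as deposited these differences were 0.52 from wild type (1.43-fold), 0.31 from heterozygous and 0.21 for heterozygous minus wild type. How far wild type lay below the other arrays therefore depends on the centring.

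Fgf5, the ligand gene most used to mark primed epiblast, was not detected. Its probe set 1426186_a_at read 0.497 in ko1 and 0.699 in ko2, against 3.51 in heterozygous and 3.23 in wild type, and 1438883_at read 0.398 in ko1 and 0.401 in ko2, against 0.916 in heterozygous and 0.705 in wild type. Every one of these values was under the background of its array, and both probe sets fell under the filter on mean signal, so no fold is given. At this sensitivity no level of Fgf5 can be compared between the genotypes.

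**Figure D3:**
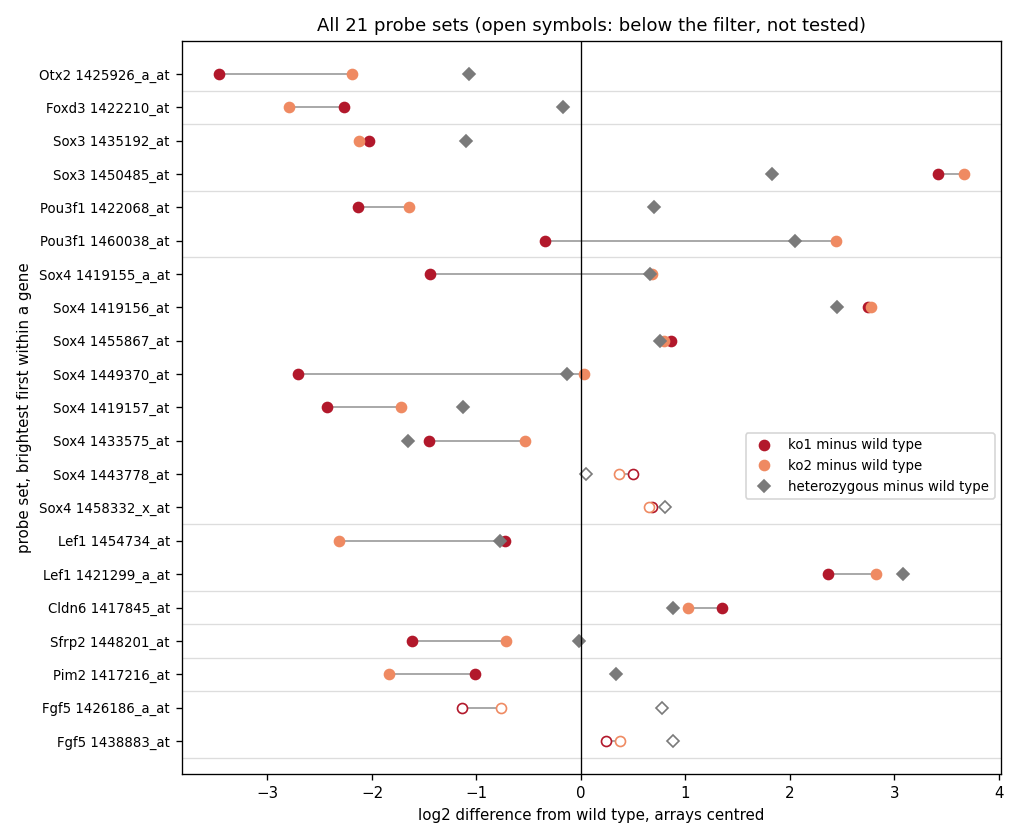
Log2 difference from wild type of each of the 21 probe sets, for ko1, ko2 and heterozygous, after centring the arrays; open symbols mark the 4 probe sets that were not tested. Probe sets of the same gene lie on both sides of 0 for Sox3, Pou3f1, Sox4 and Lef1; both Fgf5 probe sets are at background.

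Tested probe sets of the same gene lay on both sides of wild type for Sox3, Pou3f1, Sox4 and Lef1, the 4 genes here with several tested probe sets, which was also the case for 55.5% of the 5359 such genes of the array. Counted over all 21 probe sets, 12 lay below wild type and 9 above, which became 15 and 6 with signals as deposited. Against heterozygous 15 lay below and 6 above under both scalings. Both homozygous lines were below both other arrays in 7 of the 17 tested, beside 18.9% of all tested probe sets, and above them in 4, beside 19.5%. By gene, on the brightest probe set, it was 6 of the 9 tested genes below (Otx2, Foxd3, Sox3, Pou3f1, Sfrp2 and Pim2), beside 19.4% of 13729 tested genes, and 1 above (Cldn6), beside 20.1%. The 5 genes with a single probe set went 4 below and 1 above. Few of the probe sets were far from background: 5 of 21 lay above it in ko1 and 9 in ko2, with 8 for heterozygous cells and 13 for wild type cells, and 3 did so on all arrays.

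Heterozygous cells showed no common shift of these markers once the arrays were centred. The median of heterozygous minus wild type over the 10 genes was 0.16, with 5 below 0 and 5 above, against 0.09 over all genes; with signals as deposited it was -0.52, where the median of all tested probe sets was -0.66. On the brightest probe sets Cldn6 (0.89), Fgf5 (0.78, at background), Pou3f1 (0.70), Sox4 (0.66) and Pim2 (0.34) were above wild type, and Sfrp2 (-0.01), Foxd3 (-0.17), Lef1 (-0.77), Otx2 (-1.07) and Sox3 (-1.10) below it. The heterozygous signals of Lef1, Otx2 and Sox3 were at background. With signals as deposited Pim2 stood at -0.34 and Sox4 at -0.02, on the other side of 0. In limma's test 0% of the 27022 probe sets passed in this comparison, with 792 (2.93%) at an unadjusted p under 0.05, among them 1 of the 17 tested here, Sox4 1419156_at.

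The promoters of 8 of the 10 genes were in the RefSeq table of assembly GRCm38.p6 (Sox3 and Pou3f1 were not). In the 250 bases before each start, 6 motifs were searched on both strands. POU factors bind the octamer, searched as ATGCAAAT. The GC box was searched as GGGCGG and the core of the box that positions some starts as TATAAA. For homeodomain factors of the bicoid class the letters were TAATCC, for SOX factors ACAATG and for LEF1 and its TCF relatives CTTTGAT. A gene counted as holding a motif if the promoter of any of its starts did, and Otx2 and Lef1 had 4 starts each. Shares over the table are per promoter, a different unit. Of the 8 genes, 2 held the octamer, Pim2 and Sfrp2, each with 1 start, beside 1.6% of the 32851 promoters of the table. Both are shown because the octamer was the rarest of the 6 motifs over the table; Otx2 and Foxd3, which also read lower, held none. Cldn6 is shown beside them as the gene that read higher. Capitals mark every match to any of the 6 motifs, and no matches overlap.
Pim2, chrX:7878056-7878305, plus strand: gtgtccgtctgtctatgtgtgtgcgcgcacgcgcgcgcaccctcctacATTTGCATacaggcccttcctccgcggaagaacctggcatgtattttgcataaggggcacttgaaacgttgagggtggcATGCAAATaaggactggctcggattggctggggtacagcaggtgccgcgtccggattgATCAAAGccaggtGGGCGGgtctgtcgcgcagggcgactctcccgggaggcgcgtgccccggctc
Sfrp2, chr3:83766071-83766320, plus strand: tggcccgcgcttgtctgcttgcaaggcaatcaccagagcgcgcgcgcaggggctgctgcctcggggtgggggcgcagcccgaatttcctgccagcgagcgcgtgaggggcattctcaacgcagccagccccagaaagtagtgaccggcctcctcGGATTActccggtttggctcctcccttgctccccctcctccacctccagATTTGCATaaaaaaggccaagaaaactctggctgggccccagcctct
Cldn6, chr17:23679115-23679364, plus strand: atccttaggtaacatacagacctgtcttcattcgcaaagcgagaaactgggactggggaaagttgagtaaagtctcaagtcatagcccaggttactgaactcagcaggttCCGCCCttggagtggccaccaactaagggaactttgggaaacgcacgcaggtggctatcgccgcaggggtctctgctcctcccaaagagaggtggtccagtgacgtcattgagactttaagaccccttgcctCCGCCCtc
The Pim2 promoter has 2 octamers, 1 on each strand, 1 LEF/TCF match (3.21% of all promoters) and 1 GC box (32.7%). Sfrp2 has 1 octamer and 1 bicoid-class match (6.25%), and Cldn6 has 2 GC boxes and none of the others. A match in these letters is a description and not a binding site.

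Other genes of the epiblast had a median difference nearer to 0, and whether the lists differ was not tested. Of 12 measured members of a list of 15 further epiblast genes, 0 fell and 0 rose in limma's test against wild type. All 12 had differences below 0 (11 of 12 after quantile normalization), with a median of -0.62, beside 47.9% of all genes below 0. The list members that were not measured, Zic2, Fgf8 and Sall3, lay above 0, with all arrays at background. Of the measured genes, Nodal (-0.003) and Tcf7l1 (-0.09) were close to 0. The furthest were Zic5, a zinc finger factor, with 0.296 and 1.91 in the homozygous lines, 1.60 in heterozygous and 10.4 in wild type (-2.13 ± 1.39, limma adjusted p = 0.827; at least 1.31-fold lower), and Fgf15, a growth factor gene, with 2.82 and 0.276 in the homozygous lines, 7.49 in heterozygous, the only array above background, and 7.54 in wild type. Of 14 measured neural plate genes 0 passed, with 9 below 0 and 5 above (median -0.15). Sox2, of the SOXB1 group like Sox3, read 6.83 and 7.82 in the homozygous lines, 27.7 in heterozygous and 62.6 in wild type (-2.32 ± 0.55, limma adjusted p = 0.133). Hesx1, a homeobox repressor of the anterior neural plate, read 8.64 in ko1 and 4.18 in ko2, against 0.756 in heterozygous and 1.66 in wild type (2.19 ± 1.27, limma adjusted p = 0.804). Its bound, at least 1.30-fold higher, rests on the centring, since ko2 as deposited lay under the wild type background of 7.57.

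Genes of the Wnt pathway, to which Lef1 and Sfrp2 belong, stood on both sides. Of 13 measured, 0 passed, 6 lay below wild type and 7 above, with a median of 0.32. With signals as deposited it was -0.35, where the median of all tested probe sets was -0.74. Lgr5, a receptor for R-spondins, was at -2.27 ± 1.43 (limma adjusted p = 0.822) and Dkk1, a secreted Wnt inhibitor, at 2.06 ± 1.39 (limma adjusted p = 0.84), each with one side of the difference at background. Among 19 measured close relatives of the 10 genes, only Fgf4 passed. Fgf4, the gene of a growth factor that ES cells secrete, fell to 5.72 and 4.27 in the homozygous lines, against 33.1 in heterozygous and 75.7 in wild type (-3.09 ± 0.56 from wild type, limma adjusted p = 0.0291). It was also the only one of 12 naive pluripotency genes to pass, in a list with a median of -1.31, 8 members below 0 and 4 above. Of the 8 ES cell markers Utf1, a chromatin-associated factor, fell to 33.6 and 38.0 in the homozygous lines, against 116 in heterozygous and 309 in wild type (-2.42 ± 0.43, limma adjusted p = 0.0259), and 7 did not pass. That list had a median of -1.92, with all 8 below 0 under each of the 3 scalings, among them Pou5f1 (OCT4), which read 11.7 in ko1 and 42.1 in ko2, against 98.7 in heterozygous and 213 in wild type (-2.54 ± 0.62, limma adjusted p = 0.153). The calls of Fgf4 and Utf1 were lost without the filter (limma adjusted p = 0.122 and 0.113) and under 4 other settings. The median of the 9 measured epiblast markers was -1.52 in the same arrays, beside the -1.31 of the naive genes and the -1.92 of the ES cell markers.

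**Figure D4:**
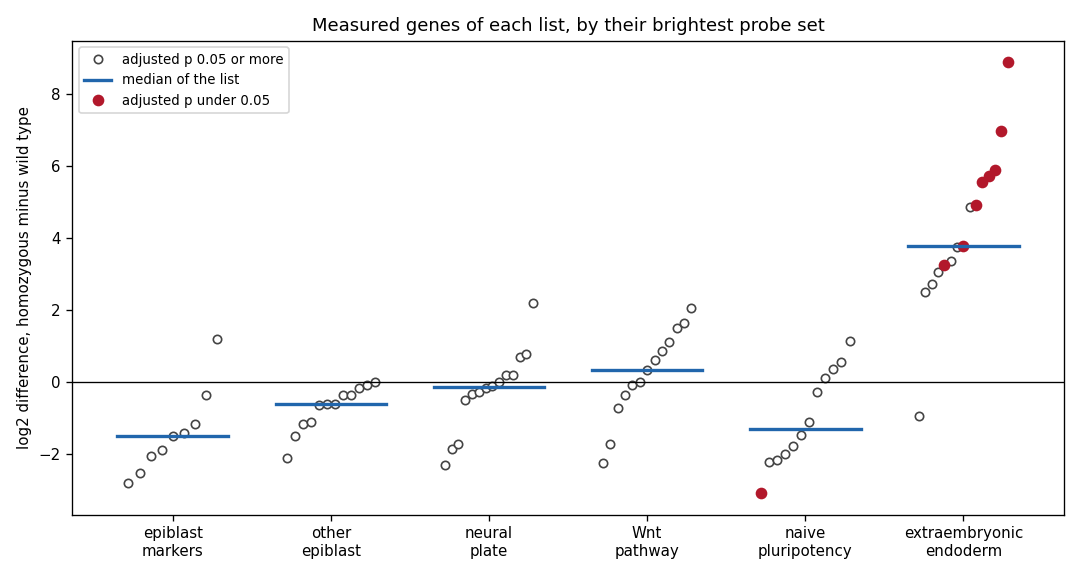
Log2 difference, homozygous minus wild type, of each measured gene by its brightest probe set, for the epiblast markers described here (9 of 10 measured) and 5 other lists; bars are medians and filled points passed limma's test at 0.05. The epiblast markers lie mostly below 0 without a call, and the extraembryonic endoderm genes lie mostly above 0 with 8 calls.

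Markers of another cell type read higher in the homozygous lines, in which most of the genes described here read lower without a call. Of 15 measured genes of extraembryonic endoderm, 8 rose against wild type and 0 fell; with signals as deposited 6 of the 8 kept the call, and without the intensity trend 0 did. Among them were the basement membrane genes Col4a1 (6.97 ± 0.45) and Lama1 (5.88 ± 0.52) and the matrix protein gene Sparc (5.70 ± 0.55), with limma adjusted p-values of 3.64e-06, 8.53e-05 and 0.000187. Col4a2, also of the basement membrane, was at background in wild type and at least 104-fold higher in homozygous cells (limma adjusted p = 1.28e-06). Summed over the 16 genes of that list the signal was 7035 in ko1 and 3912 in ko2, against 122 in heterozygous and 161 in wild type, and 14, 15, 4 and 5 of its genes lay above background in the same order. Afp was at background on all 4 arrays. Summed over the 10 epiblast markers the signal was 74.5 in ko1 and 65.6 in ko2, against 126 in heterozygous and 179 in wild type. Cldn6, which read higher in homozygous cells, made up 45.6 of that sum in ko1 and 33.1 in ko2. Its part was 31.1 in heterozygous and 26.9 in wild type. All sums given here are of signals as deposited, without centring. Trophoblast genes (8 measured) had Krt8 and Krt18, keratin genes of simple epithelia, as the only rises against wild type (2.74 ± 0.48 and 3.21 ± 0.43, limma adjusted p = 0.0226 and 0.00294), and the list summed to 472 (ko1) and 356 (ko2) in homozygous cells, beside 118 in heterozygous and 115 in wild type. Krt8 lost its call with signals as deposited (limma adjusted p = 0.104). Of 7 measured fibroblast genes 0 passed. Dcn (3.02 ± 1.37) and Twist2 (2.00 ± 1.34) were at background in wild type and allow no fold. The collagen gene Col1a2, at background in heterozygous cells alone, read 16.5 and 25.6 in the homozygous lines, 2.85 in heterozygous and 7.84 in wild type (1.99 ± 0.70, limma adjusted p = 0.571). The fibroblast list had a sum of 41.4 (ko1) and 58.6 (ko2) in homozygous cells, beside 22.5 in heterozygous and 38.0 in wild type. The part of other cell types, and of the actin ratio, which was highest in ko1 and lowest in wild type, in the lower epiblast marker signals was not tested.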

How the data were processed

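Total RNA of 4 cultures (8 microgram each) was labelled with biotin and hybridised to 1 Affymetrix array per culture, per the labels' protocols. The authors deposited 1 linear signal intensity per probe set and array; the submitters' processing notes name MAS5. Its version, its scaling target and any detection calls were not stated.

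Gene symbols came from the platform annotation (34958 of 45101 probe sets had 1 symbol, 932 several and 9211 none), and all 10 genes matched RefSeq gene IDs. The 10 genes, the lists and the motifs were chosen with earlier results of these data known. Signals were analysed as log2(signal + 0.675), the pseudocount being the 20th percentile of all values, which by itself understates fold changes of dim genes. Each array's median deviation from the probe set means was removed, because the arrays had no common level. That centring raised homozygous minus wild type for every probe set, also for those near the pseudocount, so dim rises can be overstated. Testing was limited to probe sets whose mean signal exceeded 2.55, the 40th percentile (27022, of which 17 of the 21 described here); a probe set bright in 1 group alone could pass that way.

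The test was limma 3.58.1 (R 4.3.3), fitted with a mean for each genotype and an intensity trend, adjusted by Benjamini-Hochberg over all tested probe sets, at 0.05. Only the spread of ko1 and ko2 gave a residual degree of freedom (1), with a total of 13.9 with what limma borrowed across probe sets; the lone heterozygous and wild type arrays were assumed to vary likewise. SE is limma's. The procedure was tested on simulated data: the sizes of changes were recovered without large bias, but most changes of less than the largest simulated size were missed and false calls were more frequent than the threshold allows, so the adjusted p-values of called genes are probably too small. A fold is written "at least" where every array of the dimmer side was at background, which was then used in place of lower signals, on the same log2 scale. Bounds against wild type include the centring, which raises those of a rise and lowers those of a fall. Background is the highest signal among 27 unspiked bacterial control probe sets. No depth applies to arrays; their number limits the precision. The named genes are all 21 probe sets, Arid1a, and from each list the called members (the 4 furthest where over 6 were called, the 2 furthest where none was); Pou5f1, Afp, Arid1b and Col1a2 were named after their values were seen. Promoter motifs were exact matches. Alternatives covered the pseudocount, scaling, filter, probe set summary, variance trend, grouping and each homozygous line. Promoter sequences are RefSeq's, GRCm38.p6.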

Additional observations from a re-analysis of the deposited data

How the results depend on the processing

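No paired analysis was possible because the heterozygous and wild type groups had 1 array each. None of the 10 genes was called under any alternative in which it was tested, in homozygous against wild type or against heterozygous; the smallest adjusted p was 0.0963 (Pim2, heterozygous and wild type pooled). With probe sets averaged, 2 genes changed side: Lef1 stood at 0.45 and Sox3 at 0.64 from wild type, and Sox3 at 0.36 from heterozygous, since their probe sets oppose each other. The median over the 10 genes in homozygous minus wild type, -1.47, was -1.78 with a sixteenth (1/16) of the pseudocount, -1.27 with the pseudocount at the 40th percentile, -2.14 with signals as deposited and, over the 9 genes with a value, -0.51 with probe sets averaged; it ranged from -1.74 to -1.53 with 1 homozygous line left out. In homozygous minus heterozygous, -1.44, it was -1.05 with the larger pseudocount and ranged from -1.76 to -1.33 with 1 line left out. Heterozygous minus wild type went to -0.52 with signals as deposited, where the brighter wild type array is not centred; it was 0.16 with either line left out. Of the 17 tested probe sets, 7 had both homozygous lines below both other arrays and 4 above. With probe sets averaged these were 4 and 2 genes, and with the brightest alone 1 gene was above. Without ko1 or without ko2, chosen after seeing the data, they ranged from 8 to 10 and from 4 to 7, the 7 being without ko1.

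Calls over all probe sets against wild type, 100, numbered 52 with a sixteenth (1/16) of the pseudocount, 30 without the filter, 38 with the brightest probe set per gene, 23 with probe sets averaged, 271 with heterozygous and wild type together and 0 in limma without the intensity trend (2051 at an unadjusted p under 0.05). Against heterozygous, 70, they were 40, 22, 36 and 15 in the first 4 of these settings and 0 without the trend (1814 unadjusted). Of the 13 genes called outside the 10 (8 of extraembryonic endoderm, and Fgf4, Utf1, Krt8, Krt18 and Arid1a), tried after seeing the data, none kept its call without the intensity trend (limma adjusted p = 0.654 for each). Col4a1, Col4a2, Lama1, Sparc and Krt18 kept it under each other setting. The others lost it under 1 to 6 of those, Sox17 most often, and none changed sign. The cause of these changes was not tested. Depth does not apply; signal over background limits Fgf5 and the weaker probe sets.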
